A study of Mus musculus with 32 samples.

Results

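The 8 genes Crabp2, Ndrg4, Mreg, Sema3b, Gpr84, Zbtb32, Spp1 and Flrt3 were followed through mouse splenic B cells, germinal centre (GC) B cells and B cell lymphoma lines. They were chosen by their measured rise in splenic B cells treated with antibody to immunoglobulin M (anti-IgM), and none of them belongs to the usual lists of B cell receptor response genes. They are 8 of 35019 names on the array, held by 10 of its 55681 probes. Gene expression was measured on 32 two-colour Agilent arrays, where a red and a green dye mark 2 RNA samples on 1 slide area and their log2 ratio is read for each probe. Of these arrays, 24 set 1 sample (red) against a common pool (green), which mixed RNA of tumours, GC B cells and splenic B cells, the last from either genotype and either stimulated or not, and 8 set drug-treated lymphoma cells (red) against vehicle-treated cells of the same line (green). Dyes were never swapped.

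The reference arrays held 16 samples after technical repeats were averaged. The lymphoma samples were 9 cell lines (1001, 1004, 1007, 1010, 1013, 1016, 1019, 1036 and 1039), derived from spleen lymphomas of ATMKO.CD3epsilonKO mice, in which the genes of ATM, a kinase of the DNA damage response, and of CD3 epsilon, a chain of the T cell receptor complex, are knocked out. The GC B cells came from ATMWT mice immunised with sheep red blood cells (SRBC) and count as 1 sample of 3 arrays, which the series describes as a mixture of biological and technical repeats without saying which is which. The anti-IgM samples were splenic B cells cultured with goat-anti-mouse IgM at 15 ug/ml for 3, 6 or 24 h (ATMKO.CD3epsilonKO) or for 6 h (ATMWT.CD3epsilonKO). Untreated splenic B cells of both genotypes gave 1 sample each, with no culture time given. For the 6 h samples the titles and the protocol text say 6 hours while the duration field says 3 hours, and they are given here as 6 h. The drug arrays held lymphoma lines 178119 and 28545 (ATMKO.CD3epsilonKO) with 100 nM PCI-32765, which inhibits BTK, a kinase downstream of the B cell receptor, against DMSO for 1, 3, 6 and 24 h. Lymphoma samples are established lines and splenic samples primary cells, so class and culture cannot be told apart. All 9 lines are ATMKO.CD3epsilonKO, while the GC sample is ATMWT and from immunised mice. Between lymphoma and GC, tumour state, genotype and immunisation therefore cannot be told apart. Fewer cells that express a gene and less RNA per cell cannot be told apart in such bulk RNA either.

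Cross-linking of surface IgM by antibody starts signalling from the B cell receptor through kinases that include BTK, and the cell changes its transcription within hours. The 8 genes sit at very different places in the cell. Zbtb32 is a BTB zinc finger repressor of lymphocytes, Crabp2 carries retinoic acid inside the cell to its nuclear receptors, Ndrg4 is a cytoplasmic protein best known from brain and heart, and Mreg (melanoregulin) acts in the transport of melanosomes and related lysosomes. Gpr84 is a receptor for medium-chain fatty acids known from immune cells, Sema3b and Spp1 (osteopontin) are secreted ligands of plexins with neuropilins and of integrins with CD44, and Flrt3 is a membrane adhesion protein that binds latrophilins and UNC5 receptors.

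Promoters are shown because factors downstream of the receptor act there, although the 8 genes were chosen for their rise and differed in its timing. RefSeq promoters (250 bases before to 50 after a start, build GRCm38.p6) were at hand for 6 of the 8 genes. The window was searched on both strands for GGGNNTTCC (NF-kappaB), TGANTCA (AP-1), GCGNGGGCG (EGR), GGAAAA (the core of NFAT sites), CACGTG (E box) and TGACGT (CRE), and matches are in capitals in the following sequences.
Ndrg4, chr8:95677513-95677812, forward strand: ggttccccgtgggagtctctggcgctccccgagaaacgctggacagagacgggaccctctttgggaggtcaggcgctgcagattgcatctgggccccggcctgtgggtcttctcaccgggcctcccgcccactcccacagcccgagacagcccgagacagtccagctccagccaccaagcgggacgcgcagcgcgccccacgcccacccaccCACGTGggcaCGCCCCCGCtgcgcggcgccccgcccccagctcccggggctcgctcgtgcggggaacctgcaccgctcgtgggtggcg
Mreg, chr1:72212265-72212564, reverse strand: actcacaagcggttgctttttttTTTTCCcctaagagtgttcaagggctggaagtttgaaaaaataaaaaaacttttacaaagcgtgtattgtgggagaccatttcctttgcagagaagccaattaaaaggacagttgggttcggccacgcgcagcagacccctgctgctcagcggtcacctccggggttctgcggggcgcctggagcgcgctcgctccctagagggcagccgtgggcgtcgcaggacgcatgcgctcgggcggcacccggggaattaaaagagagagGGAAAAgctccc
Spp1, chr5:104435942-104436241, forward strand: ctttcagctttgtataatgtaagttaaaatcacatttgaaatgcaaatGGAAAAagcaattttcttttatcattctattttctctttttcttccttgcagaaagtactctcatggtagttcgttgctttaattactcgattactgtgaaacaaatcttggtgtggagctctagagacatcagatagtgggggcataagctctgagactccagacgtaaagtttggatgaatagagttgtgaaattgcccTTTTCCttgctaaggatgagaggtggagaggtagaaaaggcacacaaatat
Gpr84, chr15:103310389-103310688, reverse strand: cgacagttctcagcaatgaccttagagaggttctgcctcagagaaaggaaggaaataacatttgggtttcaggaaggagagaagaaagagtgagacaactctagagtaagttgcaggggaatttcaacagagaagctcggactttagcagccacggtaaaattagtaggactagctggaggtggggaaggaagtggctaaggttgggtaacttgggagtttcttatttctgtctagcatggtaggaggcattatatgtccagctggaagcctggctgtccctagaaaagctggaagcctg
Zbtb32, chr7:30598860-30599159, reverse strand: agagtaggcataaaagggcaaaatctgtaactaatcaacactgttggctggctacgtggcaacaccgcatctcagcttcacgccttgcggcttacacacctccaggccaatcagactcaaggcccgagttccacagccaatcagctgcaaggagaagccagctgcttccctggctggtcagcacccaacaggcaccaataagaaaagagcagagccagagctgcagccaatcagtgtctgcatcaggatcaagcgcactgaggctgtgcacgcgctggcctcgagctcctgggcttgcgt
Of the listed starts of Ndrg4, numbers 1, 3 and 4 held none of the 6 motifs. The second listed start of Ndrg4 held an E box 38 bases and an EGR match 28 bases before the start. Of all 32851 promoters in the table, 7.15% held that E box and 5.55% that EGR motif. Mreg held GGAAAA at base 39 after its first listed start and, on the other strand, 227 bases before it, and Spp1 held it 202 bases and, on the other strand, 1 base before its second start. GGAAAA is short and stood in 23.4% of all promoters. Gpr84, the first start of Spp1, both starts of Zbtb32 and Flrt3 held none of the 6 motifs. Among the first listed starts only that of Mreg held a match. For Ndrg4 and Spp1 the window with matches is the one printed. The shares count single promoters, so a gene with several starts had more than 1 window to hold a match. No window of the 6 genes held the NF-kappaB, AP-1 or CRE letters, which stood in 5.82%, 7.81% and 7.51% of all promoters. Sequence letters come from GRCm38.p6, while the array's own annotation uses mm9. On mm9 the probes of Crabp2 (chr3:87757207-87757266, forward), Ndrg4 (chr8:98238734-98238793, forward), Mreg (chr1:72206048-72206107, reverse), Sema3b (chr9:107500686-107500745, reverse), Gpr84 (chr15:103138670-103138729, reverse), Zbtb32 (chr7:31374702-31374761, reverse), Spp1 (chr5:104868502-104868561, forward) and the brightest of 3 for Flrt3 (chr2:140485061-140485120, reverse) each read 60 bases of the transcript. A match is a string of letters and no measured binding, and its absence says nothing outside this window.

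Before the values, 2 arrays stood apart. Spots above background made up 29.4% on the first GC array and 21.9% on the first array of line 1039, against 49.9% to 60.7% on the other reference arrays, and the first GC array correlated with the other GC arrays at 0.0641 and 0.066. The first array of untreated ATMKO cells correlated with its repeats at 0.638 and 0.639. On the drug arrays the share was 45.6% to 53.0%, and 85.5% in line 28545 at 24 h. Atm was at -1.54 to -0.51 (log2 ratio to the pool) in the 9 lymphoma lines and -0.98 to -0.34 in the 4 splenic ATMKO samples, against 0.42 to 0.65 in the 3 ATMWT samples. Cd3e did not follow the CD3epsilonKO label: it was above background in every sample, at -0.64 to 1.15 in lymphoma lines, -0.38 to 0.48 in anti-IgM and 0.79 to 0.98 in untreated cells, all from CD3epsilonKO mice, against -1.84 in GC cells (lymphoma minus GC 2.04, limma adjusted p = 0.011). Whether its probe lies in the deleted part is not given in the sources used here. All 9 B cell markers of the list used here were above background on at least 1 array of each class. They averaged 0.31 and 0.35 in untreated ATMKO and ATMWT cells and -0.9 and -0.92 at 6 h of anti-IgM. Erythroid markers (6 of 7 measured) averaged 1.43 to 1.71 in untreated and -1.9 to 0.9 in anti-IgM samples. NK cell markers (8 of 8) averaged 1.18 to 1.2 in untreated and -0.39 to 0.95 in anti-IgM samples. Of the other cell types, macrophage and monocyte markers (15 of 16 measured) averaged -0.43 to 0.84 in anti-IgM and 0.73 to 0.9 in untreated samples, and neutrophil markers (11 of 11) averaged 0.33 to 1.24 in anti-IgM and 1.09 to 1.19 in untreated samples. In the lymphoma lines the same lists averaged -2.58 to -1.33 and -4.23 to -2.43, with C1qa, Vcam1, Msr1 and Clec4a3 above background on no lymphoma array. Receptor response genes did not move as 1 block in the splenic cells. Egr2 stood at 1.85 and 1.76 in the ATMKO and ATMWT cells at 6 h, against 0.98 and -1.45 in the untreated cells. At 3 and 24 h it stood at -0.49 and -0.15 in ATMKO cells, below their untreated value. Egr1 stood at 1.66, 0.26 and -0.31 in ATMKO cells at 3, 6 and 24 h, against 0.98 untreated. In ATMWT cells Egr1 stood at 0.49 at 6 h, against 0.78 untreated. Nr4a1, Myc and Cd69 stood at 3.2, 1.98 and 2.55 in untreated ATMKO cells and at 0.11, 0.44 and 0.76 in untreated ATMWT cells. In anti-IgM cells they ranged from -1.95 to 2.03, -1.72 to 0.65 and -1.95 to 0.6, below the untreated ATMKO value throughout, and for Nr4a1 and Myc partly above the untreated ATMWT value.

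Anti-IgM against untreated cells was the comparison that chose the genes, so its values are a description with no test. In 6 of the 8 genes (all but Crabp2 and Mreg) all 4 anti-IgM samples lay above both untreated samples, as did 5.32% of the 22204 genes measured, and nothing is read from that count. The median difference of the 8 genes was 2.22 (log2, mean of anti-IgM minus mean of untreated samples, with genotype as a term), against -0.04 over all genes. In the limma fit of these 6 samples 0 genes passed an adjusted p under 0.05 in either direction (0%), and 1669 had an unadjusted p under 0.05. The 4 anti-IgM samples mix 3 times, and the 8 genes followed different courses over them. No untreated sample is labelled as cultured for these times, so anti-IgM and time in culture cannot be told apart.

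Gpr84 was highest early. Its log2 ratio to the pool was -0.6 in untreated ATMKO cells, 1.8 at 3 h, 1.21 at 6 h and 1.44 at 24 h, and in ATMWT cells it was 1.14 at 6 h against -1.45 untreated. All 4 anti-IgM values lay above both untreated values. At 3 h Gpr84 stood 5.28-fold above untreated ATMKO cells and ranked 14 of 22204 genes.

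Mreg rose as early but did not last. ATMKO cells had -0.44 untreated, 1.8 at 3 h, 1.9 at 6 h and -0.54 at 24 h, and ATMWT cells had 1.85 at 6 h against -1.89 untreated. The 3 early values sat together, while the 24 h value was 0.09 below its untreated counterpart. The 6 h difference was 5.1-fold in ATMKO and 13.5-fold in ATMWT cells, which had the lower untreated value.

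Crabp2 formed a peak at 6 h. It stood at -1.45 in untreated ATMKO cells, -0.12 at 3 h, 1.86 at 6 h and -1.83 at 24 h, and in ATMWT cells at 1.5 at 6 h against -1.97 untreated. At 6 h it had the highest difference of all 22204 genes in ATMKO cells (9.92-fold) and the 4th highest in ATMWT cells (11.1-fold), and at 24 h it was 0.38 below untreated. Crabp2 was thus among the genes with the highest difference at 6 h and was not raised at 24 h.

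Ndrg4 had the same peak time. Its values were -1.5 in untreated ATMKO cells, -1.46 at 3 h, 1.65 at 6 h and -0.16 at 24 h, and 1.26 at 6 h against -1.99 untreated in ATMWT cells. At 3 h it stood 0.04 above untreated cells on the log2 scale. The scanner's own ratio (log2) was -2.42 at 3 h, against -4.06, -3.65 and -4.03 on the untreated ATMKO arrays. Whether Ndrg4 had already risen at 3 h is therefore not settled. At 6 h it was 8.82-fold higher in ATMKO and 9.51-fold higher in ATMWT cells. The fold is limited by the untreated side, where the probe was above background on 1 of 4 arrays and ranged from -1.81 to -0.89 among the 3 ATMKO arrays.

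Zbtb32 stayed low at 3 h and was higher from 6 h on. ATMKO cells had -2.97 untreated, -2.65 at 3 h, -0.2 at 6 h and -0.46 at 24 h, and ATMWT cells had -0.71 at 6 h against -2.74 untreated. The 6 h and 24 h differences were 6.87-fold and 5.74-fold in ATMKO cells. All anti-IgM values were below 0, that is, below the level in the pool.

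The secreted ligands differed in timing. Sema3b had -1.78 in untreated ATMKO cells, -1.01 at 3 h, 0.6 at 6 h and 1.92 at 24 h, and 0.29 at 6 h against -2.21 untreated in ATMWT cells, so that each later time was higher, up to 13.1-fold. Spp1 had -0.85, -0.16, 1.14 and 0.37 at the same ATMKO points and 1.6 at 6 h against -1.46 untreated in ATMWT cells, with its highest ATMKO value at 6 h (3.94-fold). The 3 arrays of untreated ATMKO cells spread over 0.89 for Sema3b and 0.8 for Spp1, more than for Crabp2 (0.07) or Zbtb32 (0.08).

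Flrt3 climbed without a peak. Its brightest probe read -0.7 in untreated ATMKO cells, 0.07 at 3 h, 0.75 at 6 h and 1.72 at 24 h, and in ATMWT cells 1.04 at 6 h against -1.72 untreated. The other 2 probes read 0.08, 0.53 and 1.23, and 0.02, 0.52 and 0.7, at 3, 6 and 24 h, against -0.18 and -0.22 in untreated ATMKO cells, the same order with smaller differences. Both were above background on no untreated array, so those untreated values are not measured levels.

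Across the 8 genes the highest ATMKO value fell at 3 h for Gpr84, at 6 h for Crabp2, Ndrg4, Mreg, Zbtb32 and Spp1, and at 24 h for Sema3b and Flrt3. At 6 h all 8 genes were at least 2-fold above untreated cells in both genotypes, as were 3.33% of genes in ATMKO and 3.5% in ATMWT cells. At 3 h 3 of 8 were (2.1% of all genes) and at 24 h 6 of 8 (3.83%). Each time and genotype is 1 sample. The 6 h difference could be read within slides, that is, among arrays that share a slide barcode. Its median over the 8 genes was 2.91 on slide 2 (ATMWT), 2.08 on slide 3 and 2.54 on slide 4 (both ATMKO), with lowest values of 2.04, 1.14 and 1.63 on these slides. Macrophage markers averaged 0.09, -0.43 and 0.84 at 3, 6 and 24 h and -0.26 at 6 h in ATMWT cells, against 0.73 and 0.9 in untreated ATMKO and ATMWT cells. Single markers of the list differed in direction between anti-IgM and untreated cells, from -2.97 (Vcam1) to 1.01 (Msr1), and their part in the rise of the 8 genes was not tested. The 3 h sample shares slide 3 with an untreated ATMKO array, while the 24 h sample and the untreated ATMKO arrays lay on different slides.

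**Figure D1:**
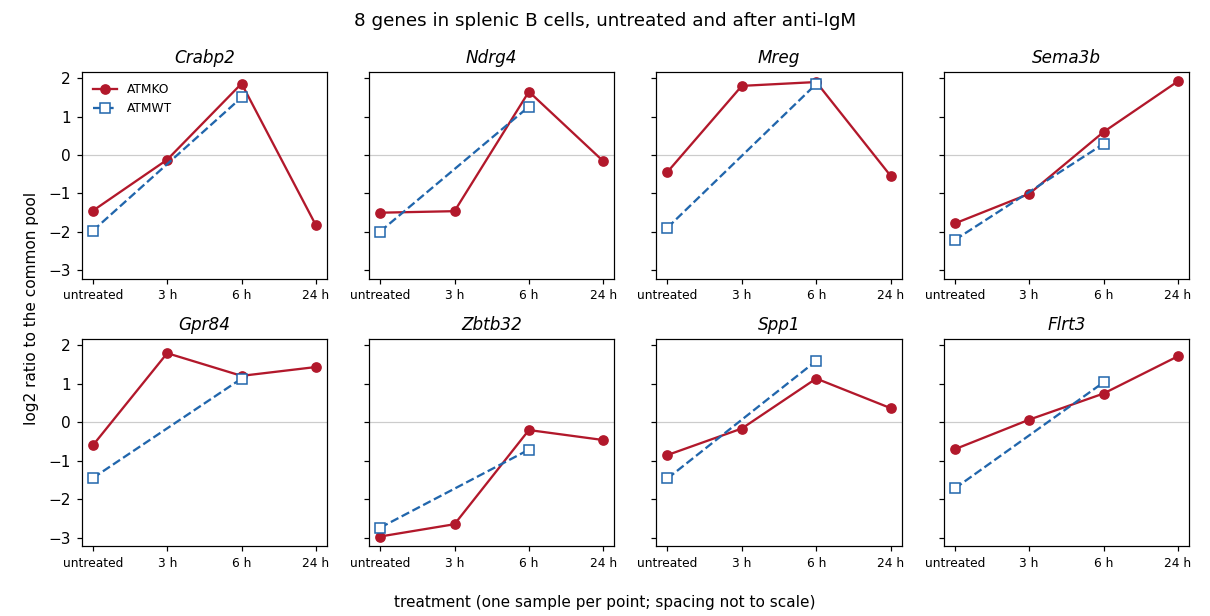
Log2 ratio to the common pool of the 8 genes (one panel each) in untreated splenic B cells and after 3, 6 and 24 h of anti-IgM, with filled red circles for ATMKO and open blue squares for ATMWT cells, one sample per point. Crabp2 and Mreg were back at -1.83 and -0.54 at 24 h, whereas Sema3b and Flrt3 reached 1.92 and 1.72 there.

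Genotype was tested over the same 6 samples with stimulation as a term. None of the 8 genes passed (0 of 8), and 0% of 22204 genes did, with 130 at an unadjusted p under 0.05 (limma). At 6 h the ATMKO and ATMWT values of the 8 genes differed by at most 0.51 (Zbtb32, higher in ATMKO), while untreated cells differed by 1.45 in Mreg (higher in ATMKO). Flrt3 was not above background in untreated ATMWT cells. With 1 sample per genotype and time these differences have no replicate check.

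In the lymphoma lines the 8 genes split. Zbtb32, Ndrg4 and Crabp2 lay above both untreated samples in all 9 lines, as 19.8% of 21386 genes did. Mreg, Gpr84, Spp1 and Flrt3 lay below all 4 anti-IgM samples in all 9 lines, as 14% of 21373 genes did. Sema3b lay above both untreated samples in 8 of 9 lines (7 without the poor array of line 1039) and overlapped the anti-IgM range. The untreated and anti-IgM samples chose the genes, so these are descriptions, and only the lymphoma lines against GC B cells are tested.

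Zbtb32 was the gene that passed in that test. The lines had 1.44 (1001), 1.82 (1004), 1.91 (1007), 1.19 (1010), 1.52 (1013), 1.57 (1016), 1.35 (1019), 0.23 (1036) and 0.47 (1039), on average 1.28 ± 0.57 (SD, n = 9), against -1.76 in GC B cells. All 9 lines lay above the GC sample, above the untreated cells (-2.97 and -2.74) and above the highest anti-IgM sample (-0.2). Lines above all anti-IgM samples were also found for 11.3% of 21373 genes. Zbtb32 was 8.19-fold higher in lymphoma than in GC cells (log2 3.03 ± 0.71 SE, limma adjusted p = 0.0146), where 4.4% of 21372 genes passed as higher and 5.35% as lower. GC is 1 sample, and its spread was taken from the other classes. It also differs from the lines in genotype and immunisation. Without the first GC array and the first array of line 1039 the difference was 3.68 (adjusted p = 0.0027), and with slide as a block 2.81 (adjusted p = 0.00122). Within slide 2 it was 2.05, which is not read. The first GC array is the only one there, and Zbtb32 was not above background on it. Within slide 4 the difference was 3.49. With the first repeat of each sample alone, which takes GC from its poor array, it was 1.74 and did not pass (adjusted p = 0.162).

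Ndrg4 averaged highest in the lines among the 4 classes, and Crabp2 stood between anti-IgM and GC cells. Ndrg4 ranged from -0.25 (line 1007) over a median of 0.34 to 1.62 (lines 1010 and 1013), 0.57 ± 0.66 on average, against -1.12 in GC cells and -1.99 and -1.5 in untreated cells. The lines 1010 and 1013 reached the level of B cells at 6 h of anti-IgM, and the difference from GC was 1.69 ± 0.87 SE (limma adjusted p = 0.256). Crabp2 ranged from -1.17 (1016) over -0.32 to 0.15 (1039), -0.41 ± 0.41 on average, against -0.88 in GC and -1.97 and -1.45 in untreated cells. Without the poor array of line 1039 the highest line was 1004, at -0.07. All 9 lines lay below both 6 h anti-IgM samples. Its difference from GC was 0.48 ± 0.89 SE (adjusted p = 0.804), and the GC value rests on arrays that read 0.39 (the poor one), -1.6 and -1.44. Within slide 4 alone it was 1.41 and passed (adjusted p = 0.04), and within slide 2, with the poor GC array, it was -0.67 (adjusted p = 0.747).

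Mreg was low in the lines. They ranged from -4.49 (1016) over -3.39 to -1.57 (1039), -3.33 ± 0.88 on average, against -1.19 in GC and -1.89 and -0.44 in untreated cells. The value of line 1039 came from a poor and a good array, and without the poor one it was -2.96, which put all 9 lines below both untreated samples. Of 21386 genes, 24.4% had all 9 lines below both untreated samples. The lymphoma minus GC difference was -2.14 ± 0.95 SE (limma adjusted p = 0.181) and -2.3 without the 2 poor arrays (adjusted p = 0.0706), and it passed within slide 4 (-1.84, adjusted p = 0.0476). The probe was above background on 8 of 12 lymphoma arrays. Macrophage and neutrophil markers were lower in the lines than in splenic cells as well, at the levels given above, and their part in the low lymphoma levels of Mreg, Gpr84, Spp1 and Flrt3 was not tested.

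Gpr84 and Flrt3 were close to the detection limit in the lines. Gpr84 ranged from -2.99 (1016) over -2.72 to -1.18 (1039), -2.39 ± 0.69 on average, against -1.67 in GC and -1.45 and -0.6 in untreated cells, and was above background on 4 of 12 lymphoma arrays. Its difference from GC was -0.73 ± 0.59 SE (adjusted p = 0.504), but the direction rested on the first GC array, since without it the difference was 0.26 (adjusted p = 0.825). Flrt3 ranged from -2.06 (1036) over -1.63 to -0.94 (1039), -1.59 ± 0.36 on average, against -1.22 in GC cells, and was above background on 0 of 12 lymphoma and 0 of 3 GC arrays. Anti-IgM cells were therefore at least 4.6-fold above the lymphoma lines by its brightest probe, and at least 1.7-fold and 1.72-fold by the other 2. Each bound sets the mean anti-IgM signal of the red channel against the lowest signal well above background on the dim arrays or the probe's own, whichever was higher. The poor GC array is the only one on slide 2, and Gpr84 and Flrt3 were not above background on it, so no lymphoma minus GC difference is read there. On slide 4 the Gpr84 difference was 0.14 (adjusted p = 0.777). Without the poor array of line 1039 the highest line was 1019 for both genes, at -1.25 for Gpr84 and -1.12 for Flrt3.

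Of the secreted ligands, Spp1 ranged among the lines from -1.21 (1036) over -1.08 to -0.58 (1016), -0.99 ± 0.19 on average, against -0.96 in GC and -1.46 and -0.85 in untreated cells. Without the poor array line 1039 was the lowest, at -1.6, and the SD was 0.27. Lymphoma, GC and untreated levels overlapped, and the lymphoma minus GC difference was -0.03 ± 0.43 SE (adjusted p = 0.978). Sema3b ranged from -2.12 (1016) over -1.2 to 0 (1036), -1.11 ± 0.72 on average, against -2.26 in GC and -2.21 and -1.78 in untreated cells. Without the poor array line 1039 was the lowest, at -2.45. Line 1036 came closest to the level that B cells had at 6 h of anti-IgM (0.29 and 0.6), and the difference from GC was 1.15 ± 0.82 SE (adjusted p = 0.433).

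**Figure D2:**
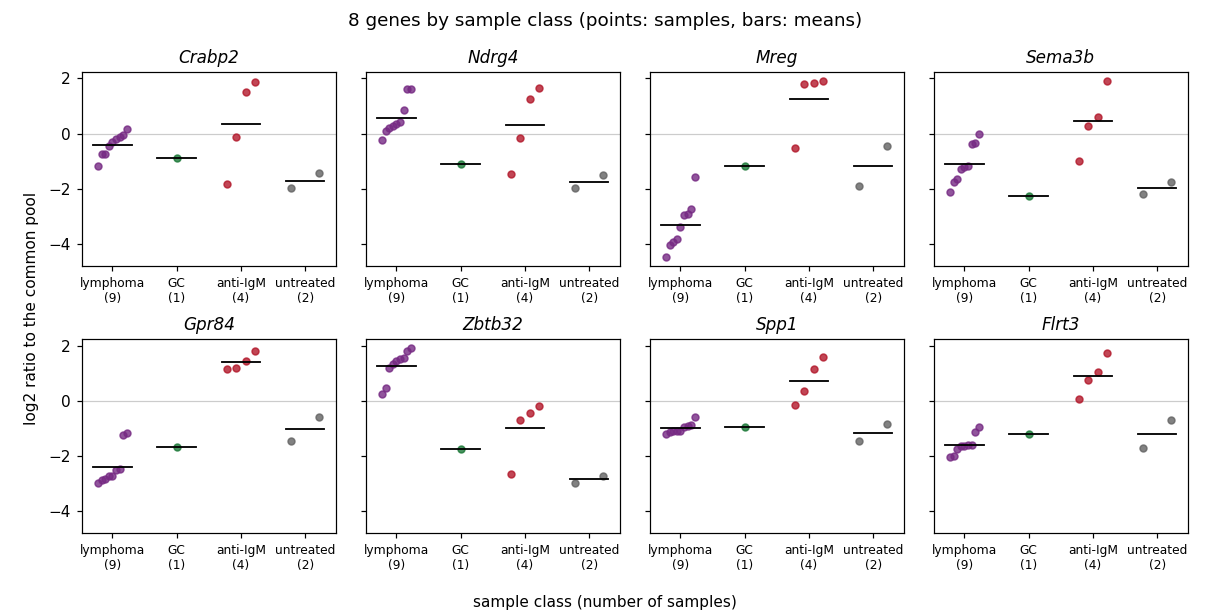
Log2 ratio to the common pool of the 8 genes (one panel each) in 9 lymphoma lines, 1 GC sample, 4 anti-IgM samples and 2 untreated samples, with a point per sample and a bar at the class mean. The lymphoma lines lie above every anti-IgM sample for Zbtb32 and below every one for Mreg, Gpr84, Spp1 and Flrt3.

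Across the 9 lines the genes did not vary as a unit. By Pearson's r, 3 of the 28 pairs of the 8 genes passed at an unadjusted p under 0.05 (exact two-sided permutation test over 9 lines). After adjustment over the 28 pairs 0 passed by r, while Crabp2 and Mreg passed by Spearman's rho. The closest pair was Crabp2 and Mreg with r = 0.863 (exact permutation p = 0.00326, adjusted p = 0.0913) and Spearman's rho = 0.917 (exact permutation p = 0.00131, adjusted p = 0.0367). Without lines 1016 and 1039, the farthest from the median of Crabp2, r was 0.734, and without the poor array of line 1039 it was 0.846 (adjusted p = 0.0909). Mreg was not above background in lines 1013, 1016 and 1036, where it was lowest, so the low end of this relation holds no measured levels of Mreg. Gpr84 and Flrt3 had r = 0.825 (exact permutation p = 0.0195, adjusted p = 0.182) and rho = 0.483 (exact permutation p = 0.194, adjusted p = 0.775), and r became -0.291 without lines 1039 and 1019, so that relation rested on those lines, and Flrt3 was above background in none of the 9. Sema3b and Spp1 ran in opposite directions with r = -0.771 (exact permutation p = 0.0095, adjusted p = 0.133) and rho = -0.7 (exact permutation p = 0.0433, adjusted p = 0.466). Its r was -0.522 without lines 1036 and 1016 and -0.0529 without the poor array of line 1039.

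**Figure D3:**
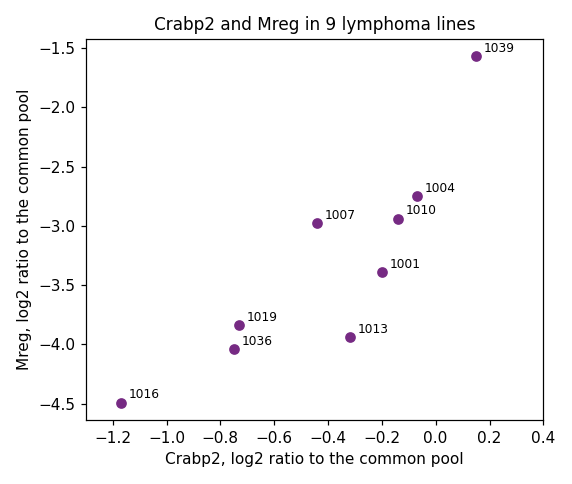
Log2 ratio to the common pool of Mreg (vertical axis) against Crabp2 (horizontal axis) in 9 lymphoma lines, each point labelled with its line. Line 1016 is lowest in both (-1.17 for Crabp2 and -4.49 for Mreg) and line 1039 highest in both (0.15 and -1.57). Mreg was not above background in lines 1013, 1016 and 1036. Without the poor array of line 1039 that line stands at -0.27 and -2.96, and line 1004 is highest in both (-0.07 and -2.75).

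PCI-32765 in lines 178119 and 28545 was the comparison furthest from the choice of the genes. Over the mean of 4 times, Crabp2 and Ndrg4 were higher with PCI-32765 than with DMSO by small amounts, and none of the 5 members tested was lower. In this fit 32.5% of 17839 genes passed, 2986 as higher and 2804 as lower, so 2 of 5 tested members is not far from the background. Mreg and Flrt3 were too dim for the test (above background with PCI-32765 on 1 of 8 arrays each), and Zbtb32 was left out because its spot on the 1 h array of line 178119 was an outlier. The receptor response genes Egr1 (-2.32 ± 0.07 SE, adjusted p = 1.45e-07) and Myc (-1.54 ± 0.06 SE, adjusted p = 2.98e-07) fell on the same arrays. All arrays had the drug in red, so a dye bias of a probe and the effect of the drug cannot be told apart. The fits took the 8 arrays as separate samples, although they come from lines 178119 and 28545 alone.

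Crabp2 was higher on 8 of 8 arrays. Line 178119 had log2 ratios of PCI-32765 to DMSO of 0.16, 0.06, 0.36 and 0.73 at 1, 3, 6 and 24 h, and line 28545 had 0.06, 0.1, 0.3 and 0.48. Both lines had their highest ratio at 24 h. The mean was 0.28 ± 0.05 SE (1.22-fold, limma adjusted p = 0.0017), and single times passed at 6 h (0.33, adjusted p = 0.0331) and 24 h (0.6, adjusted p = 0.00241). The 6 h call was lost without either line's 3 h array (adjusted p = 0.0612 and 0.0613) or 6 h array (adjusted p = 0.242 without line 178119 and 0.121 without line 28545). Of all genes, 0.101% passed at 1 h, 7.34% at 3 h, 24.3% at 6 h and 23.2% at 24 h. The 24 h minus 1 h difference was 0.5 ± 0.14 SE and did not pass (adjusted p = 0.0578), while 7.23% of genes did. With median centring in place of loess the mean of Crabp2 was 0.85, but the median of all genes was then 0.42, and Crabp2 stood 0.42 above it.

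Ndrg4 was highest at 6 h in both lines. Line 178119 had 0.33, 0.4, 0.63 and -0.36 at 1, 3, 6 and 24 h, and line 28545 had -0.11, 0.34, 0.69 and -0.05. Both lines were above 0 at 3 h and 6 h and below 0 at 24 h. The mean over times was 0.24 ± 0.06 SE (1.18-fold, limma adjusted p = 0.0141), and at 6 h Ndrg4 was 1.59-fold higher (0.66 ± 0.12 SE, adjusted p = 0.00393). With median centring in place of loess the mean was 0.58, which was 0.15 above the median of all genes (0.42). Leaving out line 178119 at 1 h or at 3 h took the mean to 0.18 (adjusted p = 0.0522) or 0.23 (adjusted p = 0.0536). The 6 h call was lost without the 6 h array of line 178119 (0.69, adjusted p = 0.0537).

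The other members did not pass. Sema3b ranged from -0.26 to 0.53 over the 8 arrays (mean 0.13 ± 0.06 SE, adjusted p = 0.155), Gpr84 from -0.14 to 0.46 (0.12 ± 0.07 SE, adjusted p = 0.184) and Spp1 from -0.06 to 0.25 (0.1 ± 0.05 SE, adjusted p = 0.152). Zbtb32 was below 0 on 6 of the 7 arrays that have a value, from -0.52 to 0.11. In a fit that kept genes with a missing value its mean was -0.23 ± 0.08 SE and did not pass (adjusted p = 0.0602). Mreg lay between -0.39 and 0.02 and Flrt3 between -0.13 and 0.2, both mostly below background. Between the 2 lines 0 of 5 members differed, 0% of 17839 genes passed and 644 had an unadjusted p under 0.05 (limma).

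**Figure D4:**
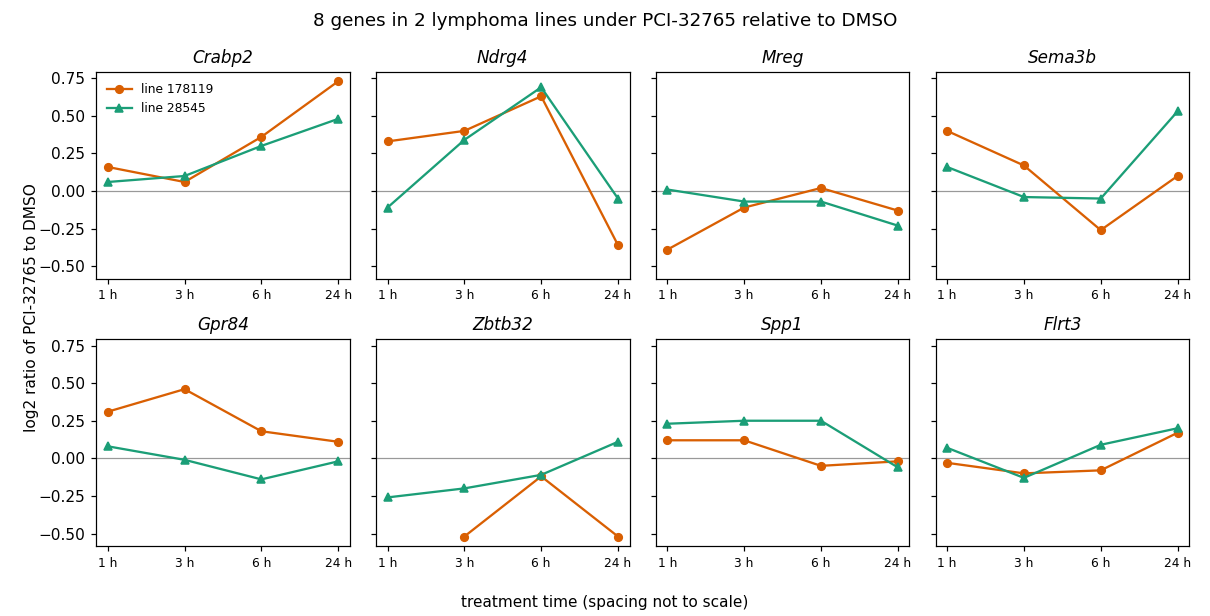
Log2 ratio of PCI-32765 to DMSO for the 8 genes (one panel each) at 1, 3, 6 and 24 h in line 178119 (circles) and line 28545 (triangles), one array per point. Crabp2 is above 0 on 8 of 8 arrays, Ndrg4 peaks at 6 h in both lines (0.63 and 0.69), and the missing circle of Zbtb32 is an outlier spot.

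Genes with the most similar course over the 16 reference samples were named by Pearson's r among 21371 genes, as a description over samples that share the pool. Gpr84 was closest to Acod1, the enzyme that makes itaconate (r = 0.973), and to Cxcl16, a membrane-bound chemokine (r = 0.968). Acod1 averaged 1.46 in anti-IgM cells and -3.34 in lymphoma lines. Flrt3 was closest to Upp1, a uridine phosphorylase (r = 0.968), and Stfa3 of the stefin A protease inhibitors (r = 0.966). Zbtb32 was closest to the synaptic scaffold gene Homer1 (r = 0.956) and the non-coding Gm10731 (r = 0.95), which averaged 0.82 and 0.62 in lymphoma lines and -0.41 and -0.49 in GC B cells, with no test, since they were picked for this pattern. Crabp2 was closest to the pseudouridine synthase Pus7 (r = 0.878), Ndrg4 to the mitochondrial import receptor Tomm70a (r = 0.919) and Sema3b to the angiogenic factor Vegfa (r = 0.824) and the forkhead gene Foxs1 (r = 0.821). Those of Mreg (r = 0.956) and Spp1 (r = 0.97) were a long non-coding RNA interval and an unnamed cDNA.

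Around each member a list of family and pathway genes was read, and in the anti-IgM fit 0 genes of any list passed. Between lymphoma and GC cells, among 16 tested genes that handle retinoids, as Crabp2 does, the fatty acid and retinoic acid carrier Fabp5 rose (2.6 ± 0.66 SE, adjusted p = 0.0234) and the retinal reductase Dhrs3 fell (-1.83 ± 0.37 SE, adjusted p = 0.00608). The list's median was 0.03, against -0.04 over all genes. Over all genes tested 4.4% were higher and 5.35% lower in lymphoma than in GC cells. Of 9 tested osteopontin receptors and relatives, 2 rose and 1 fell, namely the integrin Itgb1 (3.11 ± 0.46 SE, adjusted p = 0.00105), Cd44 (1.88 ± 0.18 SE, adjusted p = 4.75e-05) and Itgb3 (-3.66 ± 0.83 SE, adjusted p = 0.0124). Of 8 tested genes of class 3 semaphorins and their receptors, the receptor Plxnd1 rose (3.63 ± 0.48 SE, adjusted p = 0.000441). Of 8 metabolite receptors and their G proteins, Ffar2, Ffar1 and Gnai2 fell (-2.33, -1.33 and -1.33). Of 12 BTB zinc finger and class II transactivator genes, Zbtb20 fell (-1.48 ± 0.4 SE, adjusted p = 0.0314), and Ciita was at -0.63 ± 0.21 SE (adjusted p = 0.0726). Of 6 FLRT genes and partners Fgfr2 fell (-0.77), and 0 of 3 NDRG and 0 of 8 melanosome transport genes passed.

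Under PCI-32765, where 32.5% of all genes passed, 8 of 14 retinoid genes did. Of these, 4 rose and 4 fell, with the largest changes in Btg2 (0.72), Aldh1a3 (0.53) and Rdh11 (-0.5), and a list median of 0. Of 7 semaphorin genes Sema3e (0.76) and Plxna4 rose and Plxna3 (-0.41) and Plxnd1 (-0.41) fell. Of 11 BTB zinc finger genes 3 rose, among them the GC repressor Bcl6 (0.66 ± 0.05 SE, adjusted p = 2.52e-05), and 2 fell, among them Zbtb10 (-0.42). Of the remaining lists, 1 of 6 osteopontin receptors (Itgb3, 0.25), 1 of 5 FLRT genes and partners (Unc5a, 0.39), 1 of 6 melanosome transport genes (Rab7, -0.17), 0 of 5 metabolite receptors and 0 of 2 NDRG genes passed.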

How the data were processed

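RNA of mouse B cells was measured on 32 two-colour Agilent arrays of 62976 spots. Per the file headers, Agilent Feature Extraction 10.1.1.1 wrote the deposited scanner files. These deposited files give the intensity of each spot and of its surroundings, per the file headers, beside a log10 ratio of red over green. The submitters' processing notes name Feature Extraction 9.1 and limma. The deposited series matrix holds log10 ratios equal to the scanner's within 5e-04. Scanner flags (other columns, per the file headers) mark spots above background and outliers.

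Intensity was corrected with normexp (offset 50) and loess-normalised within arrays in limma 3.58.1 (R 4.3.3). Control and outlier spots were left out, and each symbol took its brightest probe. Of 55681 probes, 27235 took a symbol by accession from the RefSeq table. A fit took genes with no missing value whose probe stood well above background, in either channel, on a share of at least 0.5 of the arrays. Log2 ratios were tested by empirical Bayes with Benjamini-Hochberg adjustment at 0.05 (splenic cells 3, reference samples 12 and drug arrays 4 residual degrees of freedom). Technical repeats were averaged. Nothing says that samples of a group came from separate animals, so p-values measure the spread between these samples. The number of arrays limits precision.

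The 8 genes and the gene and marker lists were chosen with earlier results of these data known. Named genes are the 8, the closest courses, up to 3 passing genes per list and check genes. 1 list gene is not reported here. The alternatives were the scanner's log ratio, median centring, other filters, averaged probes, an intensity trend, slide, sample (duplicateCorrelation, statmod 1.5.0) or line as a block, single arrays and arrays left out. Fits were tested on simulated data. Other software was Python 3.11.15 with matplotlib 3.10.9, numpy 2.4.6 and pandas 2.3.3, and the R package data.table (1.17.8).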

Additional observations from a re-analysis of the deposited data

Results flagged for a closer look

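Of 24 sets of values examined (8 genes in 9 lymphoma lines, 4 anti-IgM samples and the drug arrays), 1 held a sample far from the others. Mreg at 24 h of anti-IgM was at -0.54, against 1.8 to 1.9 in the other 3 anti-IgM samples. This gap was 0.957 of the whole range. The anti-IgM samples mix times and genotypes and the drug arrays mix times and lines, so no chance rate is given for such flags. The flagged value also belongs to the comparison that chose the genes. The 24 h sample is a single array on slide 2, the only one at that time.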

How the results depend on the processing

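The 8 genes were chosen for their rise with anti-IgM, so a positive difference in these samples was fixed in advance and is no check. Anti-IgM and untreated cells kept a positive median difference of the 8 genes in all settings (1.53 to 2.91 with a sample left out, 3.02 by the scanner's log ratio, against 2.22). Over all genes that fit gave 2681 higher and 3682 lower of 22219 with the 6 h samples alone, 204 and 821 with slide as a block and 2 and 6 with sample as a random block, against 0. Genotype gave 15 genes with slide and 4 with sample as a block, 0 of the 8 among them. Within slides 2 and 4, which hold 1 and 2 GC arrays, the calls of lymphoma minus GC changed. None of the members called within slide 2 (Zbtb32, Gpr84 and Flrt3) was above background on its GC array. Lymphoma minus GC called 1 of the 8 in each fit with a sample left out. It called 0 where every array had to be above background (1 member tested) or where first repeats alone were used. Its signs turned for Crabp2 (-0.78 by first repeats, -0.67 within slide 2), Flrt3, below background in both classes (0.18 within slide 4, 0.13 without the first GC array, 0.05 without both poor arrays), Gpr84 (0.14, 0.26 and 0.14 in these settings) and Spp1 (0.28 and 0.2 without 1 or both). Over all genes it called 1417 higher and 1776 lower without the first GC array, 1808 and 2071 with slide as a block, and 218 and 198 of 2563 with every array above background, against 940 and 1144; the last tests fewer genes, and the cause of the others was not tested. For PCI-32765, with an array left out, members called were 1 to 3 for the mean, 0 at 1 h and 3 h, 0 to 2 at 6 h, 1 at 24 h and 0 to 1 for 24 h minus 1 h, with 0 between lines. The scanner's log ratio called 1 at 6 h, median centring 3 at 1 h and 3 at 3 h, and averaged probes or an intensity trend 1 for 24 h minus 1 h. Median centring turned 2986 higher and 2804 lower genes into 12961 and 117, with the median of all genes at 0.42, against which Gpr84 and Spp1 lay at -0.21 and -0.24. The arrays of each time come in pairs from the same 2 lines, and with line as a replicate block 2 members and 2841 higher and 2697 lower genes passed for the mean, with no member's call changed. Line entered there as a fixed term, so that fit cannot check the repeated use of the same 2 lines. By the scanner's log ratio 1 pair of genes, Crabp2 and Mreg, correlated over the lines (r = 0.901, exact permutation adjusted p = 0.0322), against 0. The fit that kept Zbtb32, the leaving out of both poor arrays together and of the poor array in the correlations, and the within-slide 6 h values were chosen after seeing the data. Single samples per time and genotype, 1 GC sample, the lack of dye swaps and dim probes of Mreg, Gpr84 and Flrt3 limit all of this.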

Other observations

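Some plasma cell genes were higher in the lymphoma lines than in GC cells. Of 7 tested, 3 rose against GC cells, namely the transcription factors Irf4 (1.99 ± 0.53 SE, limma adjusted p = 0.0296) and Xbp1 (1.69 ± 0.46 SE, limma adjusted p = 0.0329) and the endoplasmic reticulum chaperone Mzb1 (1.95 ± 0.39 SE, limma adjusted p = 0.00612), and 0 fell. Of 21372 genes, 4.4% passed as higher and 5.35% as lower. The list averaged -0.74 to 1.21 in the 9 lines, against -1.04 in GC cells. In untreated cells it averaged 0.12 to 0.47 and in anti-IgM cells -0.54 to 0.18, both within the range of the lines. Prdm1, the regulator of plasma cell differentiation, was at 1.49 ± 0.85 SE (limma adjusted p = 0.312), and Sdc1, Jchain and Tnfrsf17 were at 0.1, -0.09 and -0.7 (limma adjusted p = 0.965, 0.978 and 0.359). Under PCI-32765 Irf4 (-0.84 ± 0.06 SE, limma adjusted p = 1.19e-05), Sdc1 (-0.58) and Prdm1 (-0.24) fell, while Mzb1 (0.4) and Jchain rose.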
